A study of Mus musculus with 4 samples.

Results

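Late primitive streak cells of the early headfold (EHF) mouse embryo were taken from the single-cell library of that stage with a gate on 5 genes. A cell was chosen by at least 1 unique molecular identifier (UMI, 1 captured transcript molecule) of *T*, at least 1 UMI of *Mixl1* or *Evx1*, and no UMI of *Nkx1-2* or *Mesp1*. The gate held 55 of the 3494 EHF cells, or 1.57% (95% exact binomial interval 1.19 to 2.04), and the other 3439 EHF cells served as the comparison. The series holds 11123 cells in all, from 1 library at each of 3 stages.

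All embryos carried TnEGP-CreERT2/+ and R26Rtdtomato/R26Rtdtomato, so 1 *T* allele was a knock-in, the tamoxifen-inducible Cre was driven from the *T* locus, and tdTomato came from the Rosa26 locus after recombination. EHF embryos were collected at E7+14h after 0.08 mg/bw tamoxifen by oral gavage at E7+7h. Neural plate stage embryos (OB-EB, no bud to early bud) were collected at E7+3h after the same dose at E6+21h, and mid to late streak embryos (MS-LS) at E6+21h after the same dose at E6+5h. Each stage is 1 library of several embryos whose cells carry no embryo label, so a stage is 1 sample and no test was made. Levels are UMIs of a gene summed over the cells of a group per 1000000 UMIs of that group (CPM), and the intervals given are exact 95% intervals that cover counting error only.

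The primitive streak is the posterior site where epiblast cells undergo an epithelial to mesenchymal transition and leave as mesoderm and endoderm. *T* (Brachyury) and *Mixl1* are transcription factors of streak cells, and *Evx1* is a homeobox gene of the posterior streak. As gastrulation proceeds the streak turns from cardiac and extraembryonic mesoderm to paraxial and posterior mesoderm, under Wnt and FGF signals and with Cdx and Hox genes coming on, while *Nkx1-2* marks the caudal epiblast beside it and *Mesp1* the nascent mesoderm that has just left it.

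The 55 cells held 305567 UMIs in all, between 1060 and 18404 per cell with a median of 5100. Their median number of genes was 1922. In the other EHF cells the medians were 5609 UMIs and 2085 genes. Mitochondrial transcripts had a median share of 1.25% in the late streak cells and 1.09% in the others. No late streak cell shared a barcode with a gated cell of another library. None of the 55 cells fell in the marker gates for blood, extraembryonic ectoderm or visceral endoderm, which took 878 EHF cells together.

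The values of the gate genes follow from the choice of cells and are given as a description. Summed *T* (GRCm38 chromosome 17, 8434423 to 8442496) was 168 UMIs, with 1 to 11 per cell and a median of 2, which made 550 CPM against 82.2 in the other EHF cells. *Mixl1* (chromosome 1, 180693043 to 180697034) had 79 UMIs, 259 CPM against 11.3, with up to 15 in a cell. *Evx1* (chromosome 6, 52313498 to 52318378) had 12 UMIs, 39.3 CPM against 4.63. The group was therefore mainly a *T* and *Mixl1* group: 44 cells had *Mixl1* without *Evx1*, 9 had *Evx1* without *Mixl1* and 2 had both.

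At the edge of the gate, most members entered on a few molecules. Of the 55 cells, 17 had exactly 1 *T* UMI and 41 had exactly 1 UMI of *Mixl1* and *Evx1* together. Of the 674 EHF cells with a *T* UMI, 176 also had *Mixl1* or *Evx1*, and the gate left out 70 of these for *Nkx1-2* alone, 28 for *Mesp1* alone and 23 for both. Among the 70, 25 had exactly 1 *Nkx1-2* UMI, and among the 28, 15 had exactly 1 *Mesp1* UMI. Another 275 cells had *T* and none of the other gate genes, and 49 had *Mixl1* or *Evx1* and none of the other gate genes. In the extraembryonic ectoderm gate (600 cells, median 7441.5 UMIs), which should lack both genes, 5.67% of cells had a *T* UMI and 0.667% a *Mixl1* UMI. The part of free RNA in the membership was not tested.

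To check the label, markers of the late streak that the gate did not use were summed. These 10 genes, which include *Cdx1*, *Fst*, *Gal*, *Frzb*, *Sp5* and *Wnt3a*, reached 1892 CPM (1740 to 2052) in the late streak cells against 567 in the other EHF cells, and 51 of the 55 cells had a UMI of them. None of the 10 was at 0. These markers were chosen with results known, and some, such as *Cdx1* and *Fst*, stand as high in neighbouring groups of cells, so the sum sets the cells apart from the library as a whole and not from those groups. The sum of caudal epiblast markers other than *Nkx1-2* was 890 against 344 CPM, but *Grsf1*, an RNA-binding protein gene, made 799 CPM of it. *Cdh1* did not stand above the rest and *Sox2* was close to it, as given below. The sum is therefore not read as a caudal epiblast trait. Presomitic markers stood at 403 CPM (335 to 480) against 75.1, with a UMI in 43 cells and with *Lfng* at 0. After thinning each cell to 2000 UMIs, 57.1% of late streak cells and 11.4% of the others had a presomitic UMI. All 4 germ cell markers had no UMI in the late streak cells and 30.3 CPM in the others. Among these 4, *Tfap2c* is also a gene of the extraembryonic ectoderm gate, and the part of that tissue in the 30.3 CPM was not tested. The remaining nascent mesoderm markers (*Mesp2*, *Lefty2*) also had no UMI, but at 3.34 CPM in the other cells they could not be compared.

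Transcripts of the extraembryonic tissues and blood were below the rest of the library. Visceral endoderm markers summed to 141 CPM in the late streak cells and 2304 in the other cells, with *Apob* at 0 and no cell above 5 UMIs. Extraembryonic ectoderm markers summed to 13.1 and 393 CPM, with *Elf5*, *Rhox6*, *Ascl2* and *Tfap2c* at 0. Globins summed to 19.6 and 269 CPM. Notochord and node markers were at 26.2 and 18.9 CPM, from 8 UMIs in 3 late streak cells and with *Shh* and *Chrd* at 0, and cardiac markers were at 49.1 and 85.2 CPM. The part of these transcripts in the results was not tested.

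Against all other EHF cells, 11161 genes had at least 50 UMIs over both groups. Of these, 6.98% were at least 2-fold higher in the late streak cells and 10.1% at least 2-fold lower, around a median log2 ratio of −0.11, with genes of no late streak UMI ranked lowest. The median gene had only 5 UMIs in the late streak cells, and counting error alone carries many genes of so few UMIs past 2-fold, so nothing is read from the size of these shares. Among the 2810 genes with at least 1000 UMIs, a limit chosen after seeing the data, 0.996% were at least 2-fold higher and 5.23% at least 2-fold lower. With 1 library, these shares describe the cells and not a replicated difference.

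Of the 20 leading genes, 6 were in the presomitic list, and they are given first. *Tbx6*, the T-box factor that commits streak cells to paraxial mesoderm, had 47 UMIs in 24 of the 55 cells, 154 CPM (113 to 205) against 20.5, a log2 ratio of 2.91 (2.44 to 3.34). *Dll3* (log2 ratio 2.44, 1.77 to 3.04), *Dll1* (2.15, 1.47 to 2.76) and *Hes7* (2.34, 1.74 to 2.90), the Notch ligands and the oscillating Notch target of the segmentation clock, followed with 23 to 28 UMIs each. *Aldh1a2*, which makes retinoic acid, was at 190 CPM against 41.1 (2.21, 1.80 to 2.59), but its 58 UMIs came from only 19 cells. *Rspo3*, a secreted amplifier of Wnt signals, was among the best measured, with 106 UMIs in 36 cells and 347 CPM against 68.6 (2.34, 2.04 to 2.62). These genes were not in the gate, yet none of them was seen in all cells.

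Other leading genes have other known roles. *Fabp7*, a fatty acid binding protein, had the largest ratio by the naming rule (118 against 15.4 CPM, 2.93, 2.39 to 3.43) with a UMI in 19 cells. *Gal*, which encodes the neuropeptide galanin, reached 177 against 28.0 CPM (2.66, 2.23 to 3.06) in 28 cells. *Fst*, the activin antagonist follistatin, had 461 against 120 CPM (1.94, 1.69 to 2.19) in 39 cells, and *Cdx1*, a caudal homeobox factor, 592 against 162 (1.87, 1.65 to 2.09) in 40 cells, with up to 22 UMIs in a cell. *Lef1*, the nuclear partner of beta-catenin, was at 203 against 53.8 CPM (1.92, 1.52 to 2.29). The leading genes with most UMIs, *Cdx1*, *Fst* and *Rspo3*, had log2 ratios of 1.87 to 2.34, and each larger ratio rested on fewer than 60 UMIs.

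The remaining leading genes were *Hoxaas3*, a transcript of the Hoxa cluster, *Rab8b*, *Car3*, *Sh3gl3*, *Efna1*, *Tcea3*, *Foxb1*, *Abhd11os* and *Crmp1*, with log2 ratios from 2.61 (*Hoxaas3*) to 1.87 (*Crmp1*) and 17 to 61 UMIs each. *Hoxaas3* overlaps Hoxa genes, and reads from overlapping transcripts may be split between them. Leaving out the late streak cell with most UMIs left all 30 leading and lowest genes past 2-fold.

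**Figure D1:**
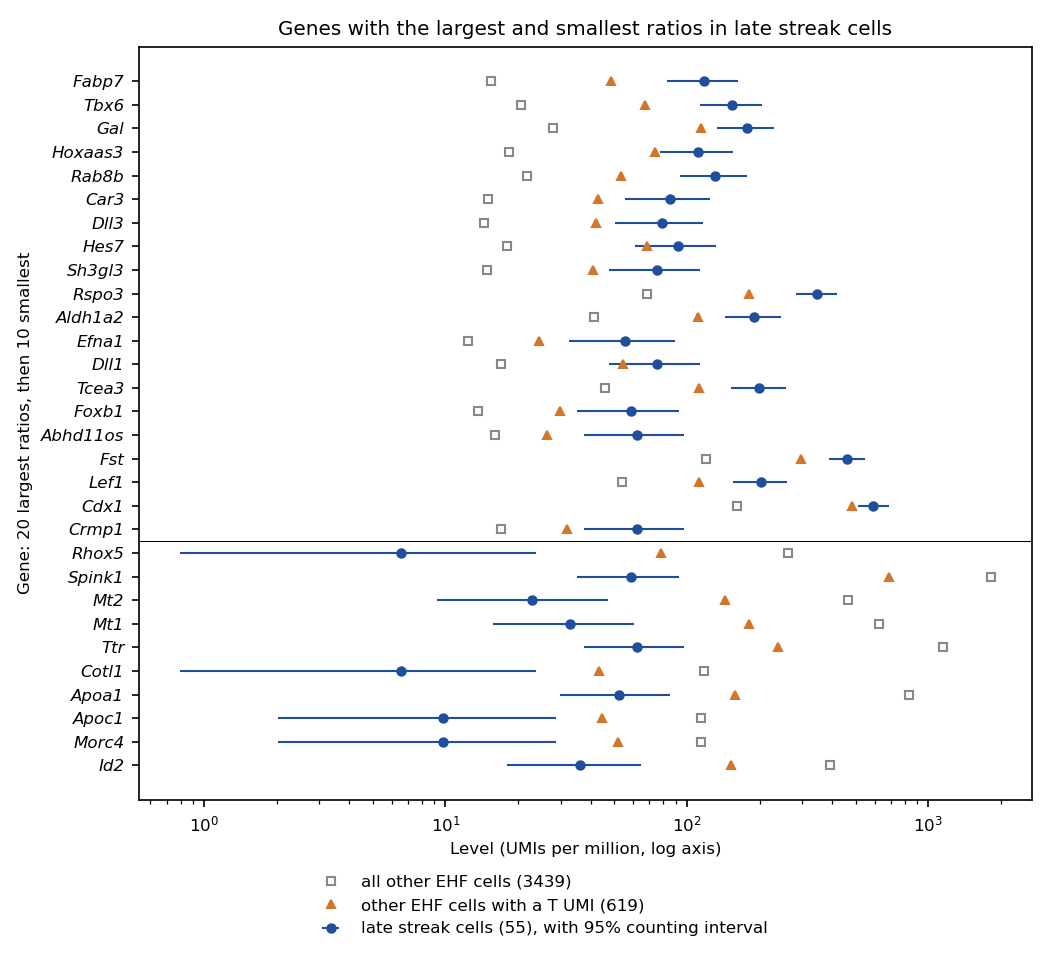
Level of the 20 genes with the largest and the 10 with the smallest ratio in the 55 late streak cells (filled circles, bars are 95% counting intervals), in the 619 other EHF cells with a *T* UMI (triangles) and in all 3439 other EHF cells (open squares), in CPM on a log axis. All 20 upper genes lie right of the open squares, while the triangles of *Hes7* (68.6 CPM) and *Dll1* (54.2 CPM) fall inside the late streak intervals.

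The promoters of *Tbx6*, *Dll3* and *Hes7* are shown as segmentation genes among the leading genes, and that of *Dll1* is not shown. Each is the 250 bases before the RefSeq start of the gene in GRCm38.p6, written 5′ to 3′ along the gene, with capitals for TATAA on the gene's own strand.
Tbx6, chr7:126781233-126781482, plus strand: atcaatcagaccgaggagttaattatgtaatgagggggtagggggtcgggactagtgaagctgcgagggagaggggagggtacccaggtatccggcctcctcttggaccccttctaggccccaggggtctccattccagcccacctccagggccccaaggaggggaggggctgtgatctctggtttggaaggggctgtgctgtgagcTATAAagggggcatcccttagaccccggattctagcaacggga
Dll3, chr7:28301786-28302035, minus strand: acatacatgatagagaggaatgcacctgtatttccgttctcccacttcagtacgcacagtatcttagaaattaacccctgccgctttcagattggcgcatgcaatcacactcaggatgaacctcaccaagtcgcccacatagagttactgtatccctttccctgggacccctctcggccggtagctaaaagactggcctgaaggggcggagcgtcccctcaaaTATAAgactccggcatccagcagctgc
Hes7, chr11:69120203-69120452, plus strand: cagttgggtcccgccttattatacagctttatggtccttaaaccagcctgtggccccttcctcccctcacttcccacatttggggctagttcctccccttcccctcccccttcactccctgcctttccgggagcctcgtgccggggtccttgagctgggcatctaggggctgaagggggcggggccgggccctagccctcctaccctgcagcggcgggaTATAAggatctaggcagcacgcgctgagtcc
In *Tbx6* the TATAA lies 43 to 39 bases before the start, in *Dll3* 27 to 23 and in *Hes7* 31 to 27. It was present in the 50 bases before the start of 3 of the 14 leading genes with a RefSeq promoter (of 20), and of 4.93% of 32851 promoters. Those 3 were the genes shown. This motif was chosen after the windows had been read. The letters CTTTGA (TCF/LEF core) and GGTGTGA (T-box core) were searched on both strands of the 250 bases, where they occurred in 13.8% and 3.33% of all promoters and in 0 of the 14. These matches are descriptions of letters and not of binding.

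Wnt ligands and targets were mostly on the higher side. Of 7 Wnt ligands tested, 3 were at least 2-fold higher and none lower, beside 6.98% and 10.1% of all genes. *Wnt3a*, the ligand of the late streak, was at 42.5 against 6.08 CPM (2.81, 1.86 to 3.63) and *Wnt8a* at 26.2 against 8.52 (1.62, 0.38 to 2.63). The interval of the third, *Wnt5b*, reached below 0 (1.01, −0.63 to 2.26). Of 17 genes of Wnt response and feedback, 9 were higher and 2 lower, with a median log2 ratio of 1.20 beside −0.11 over all genes tested. They included the Wnt-responsive factors *Sp5* (1.71, 1.07 to 2.29) and *Sp8*, the inhibitors *Frzb* (151 against 44.2 CPM) and *Dkk1*, and the negative feedback genes *Axin2* and *Nkd1*, with log2 ratios of 1.20 (*Nkd1*) to 1.77 (*Frzb*). The repressor *Tcf7l1* and the inhibitor *Sfrp1* were on the other side, each with 2 UMIs (−2.24 and −2.23). Neighbouring groups shared much of this. Summed Wnt response and feedback genes were at 1685 CPM in the late streak cells and 1540 in cells with *T* and *Nkx1-2*. They were at 983 in cells with *Mesp1* and 1884 in cells with *Tbx6* and *Dll1*. Summed Wnt ligands were at 154, 156, 116 and 127 CPM in the same order.

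FGF ligands were also mostly higher. Of 7 tested, 4 were at least 2-fold higher and 1 lower. *Fgf17* stood at 55.6 against 6.38 CPM (3.12, 2.30 to 3.86), *Fgf15* at 78.5 against 18.6 (2.08, 1.42 to 2.68), *Fgf4* at 22.9 against 4.28 (2.42, 1.06 to 3.52), and *Fgf8*, which drives the movement of cells out of the streak, at 68.7 against 24.1 (1.51, 0.81 to 2.14). Of 15 receptors and response genes, 7 were higher and 2 lower (median 0.79). The phosphatase *Dusp6* (105 against 30.1 CPM, 1.80, 1.24 to 2.31) and the feedback inhibitor *Spry2* (1.58, 0.69 to 2.35) were among the higher ones. *Fgfr1*, the receptor that streak cells depend on, was at 134 against 82.0 CPM (0.71, 0.23 to 1.16), and *Fgfr2* had 1 UMI. Summed receptors and response genes were at 622 CPM in the late streak cells and 578 in cells with *T* and *Nkx1-2*. They were at 422 in cells with *Mesp1* and 607 in cells with *Tbx6* and *Dll1*. Summed FGF ligands were at 295, 213, 232 and 208 CPM in the same order.

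Nodal and BMP genes differed from each other. Of 11 Nodal pathway genes, 2 were at least 2-fold higher (*Foxh1*, with 4 UMIs, and *Fst*) and none lower, with a median of −0.06. *Nodal*, *Eomes*, *Lefty2* and *Gsc*, genes of the early and anterior streak, had no UMI in the 55 cells. *Nodal*, *Lefty2* and *Gsc* were at 0.448 to 1.89 CPM in the other cells, too low to be compared. With 3 UMIs as the limit of a 0, *Eomes* was at least 0.63 lower in log2 than in the other cells (15.1 CPM). The exact interval of this ratio had an upper limit of −0.32. Of the 304 *Eomes* UMIs in the other cells, 224 were in the extraembryonic ectoderm gate, and against the embryonic cells alone, at 5.29 CPM, the 0 could not be compared. Of 18 BMP genes none was at least 2-fold higher and 6 were lower (median −1.13, or −0.50 with the 4 genes of no UMI at their bound). The BMP targets *Id1* (−0.73, −1.28 to −0.23), *Id3* (−0.70, −1.06 to −0.37) and *Id2* (−3.44, −4.45 to −2.60) were all lower, while the 5 UMIs of *Bmp4* (16.4 against 36.8 CPM) gave an interval that reached 0 (−1.17, −2.80 to 0.06). Summed BMP genes were at 583 CPM in the late streak cells, 2121 in the extraembryonic ectoderm gate and 1623 in the visceral endoderm gate. They were at 851 in cells with *T* and *Nkx1-2*, 1149 in cells with *Mesp1* and 378 in cells with *Tbx6* and *Dll1*. The part of the extraembryonic tissues in the BMP ratios was not tested.

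Notch and retinoic acid genes were split. Of 12 Notch genes, 5 were higher (*Dll1*, *Dll3*, *Hes7*, *Notch1*, *Nrarp*) and 1 lower (*Hes1*), with 4 at no UMI and a median of 0.06 that becomes 1.22 when those 4 are set to their bound. Medians with bounds are upper limits, since each bound counts 3 UMIs for a gene not seen in the late streak cells. *Hes1*, a general Notch target, was at 29.5 against 59.9 CPM (−1.03, −2.16 to −0.10), opposite to *Hes7*. Of 11 retinoic acid genes, 3 were higher and 3 lower, and their median was −0.56, or 0.90 with the 2 genes of no UMI at their bound. *Crabp1*, which encodes a retinoic acid binding protein, stood with *Aldh1a2* at 170 against 82.8 CPM (1.04, 0.61 to 1.44), and *Cyp26a1*, which degrades retinoic acid, had 4 UMIs (−1.28, −3.16 to 0.09).

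Posterior identity genes were higher than in all other EHF cells, a trait shared by the neighbouring groups. Of 17 Hox genes tested, 12 were at least 2-fold higher and none lower, with a median of 1.51 (1.67 with the gene of no UMI at its bound). *Hoxb1* stood at 183 against 51.3 CPM (1.84, 1.42 to 2.22) and *Hoxb2* at 105 against 36.8 (1.51, 0.95 to 2.02). *Hoxb4* had the largest ratio (52.4 against 5.88 CPM, 3.15, 2.30 to 3.91), whereas *Hoxb7* and *Hoxb9*, with 3 and 2 UMIs, had intervals on both sides of 0. Summed Hox genes were at 799 CPM in the late streak cells, 661 in cells with *T* and *Nkx1-2*, 619 in cells with *Mesp1* and 756 in cells with *Tbx6* and *Dll1*, and none of the 4, 6 and 3 Hox genes tested against these groups was 2-fold higher. Of the Cdx genes, *Cdx2* was at 239 against 114 CPM (1.06, 0.71 to 1.40) and *Cdx4* had 4 UMIs. *Pou5f1*, the pluripotency factor Oct4 that posterior cells keep for some time, was at 622 against 234 CPM (1.41, 1.19 to 1.62) with a UMI in 49 cells. Other pluripotency genes were not on that side as a list: of 18, 2 were higher and 4 lower, *Utf1* among the lower ones (−2.86, −5.13 to −1.31), and *Sox2* was at 42.5 against 37.7 CPM (0.17, −0.74 to 0.96).

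Mesoderm lists went different ways. Of 12 presomitic genes, 8 were at least 2-fold higher and none lower (median 1.93, or 2.03 with bounds), with *Lfng*, *Pcdh8* and *Ripply2* at no UMI and the master regulator *Msgn1* at 1 UMI. *Pcdh19*, a protocadherin of the presomitic mesoderm, was at 108 against 33.0 CPM (1.71, 1.16 to 2.22). Of 4 somite genes none was higher and 1 lower, *Tcf15* with 1 UMI. Of 13 genes of lateral plate and extraembryonic mesoderm, 1 was higher and 6 lower (median −1.04, or −0.78 with bounds), *Hand1* standing at 75.3 against 129 CPM (−0.78, −1.44 to −0.19). *Lmo2*, a cofactor of blood and endothelial progenitors, was the only one of 10 haemato-endothelial genes on the higher side (137 against 57.6 CPM, 1.25, 0.77 to 1.70), while 4 were lower.

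Genes of epithelia were lower than in all other EHF cells, and few genes of mesenchyme passed 2-fold. Of 15 epithelial junction genes, none was higher and 6 were lower (median −1.32, or −0.84 with bounds), among them the keratins *Krt8* (−1.57, −2.15 to −1.05) and *Krt18* (−1.85, −2.35 to −1.39) and the claudin *Cldn6* (−2.54, −3.99 to −1.42). E-cadherin (*Cdh1*) was at 42.5 against 63.5 CPM (−0.58, −1.49 to 0.20) and *Epcam* at 75.3 against 122 (−0.69, −1.35 to −0.11). Summed epithelial junction genes were at 452 CPM in the late streak cells, 1927 in the extraembryonic ectoderm gate and 1944 in the visceral endoderm gate. They were at 790 in cells with *T* and *Nkx1-2*, 696 in cells with *Mesp1* and 304 in cells with *Tbx6* and *Dll1*. Of 16 genes of the mesenchymal switch, N-cadherin (*Cdh2*, 1.47, 0.80 to 2.07) and the E-cadherin repressor *Snai1* (1.44, 0.52 to 2.24) were higher and 2 were lower. Over all genes tested 6.98% were higher and 10.1% lower, so no trend of the mesenchymal list is read from these counts. Of 30 cell cycle genes none passed 2-fold, and of 16 glycolysis genes only *Slc2a3*, a glucose transporter, did (−2.01, −2.48 to −1.57). The lowest genes by rule were *Rhox5*, *Spink1*, *Mt2*, *Mt1*, *Ttr*, *Cotl1*, *Apoa1*, *Apoc1*, *Morc4* and *Id2* (log2 ratios −5.32 to −3.44). Without the blood and extraembryonic gates in the comparison, the ratios of the visceral endoderm genes *Ttr* and *Apoa1* turned to 0.065 and 0.21.

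The comparison with all other EHF cells includes tissues far from the streak, so the late streak cells were also set against the 619 other cells with a *T* UMI. There 69 of 6889 genes were at least 2-fold higher and 561 (8.14%) lower, and 15 of the 30 leading and lowest genes stayed past 2-fold. All 10 lowest genes were among the 15, and 5 of the 20 leading genes: *Rab8b* (1.30, 0.77 to 1.79), *Fabp7* (1.28, 0.72 to 1.80), *Abhd11os* (1.23, 0.44 to 1.95), *Tbx6* (1.19, 0.71 to 1.64) and *Efna1* (1.19, 0.35 to 1.94). The other 15 leading genes were below 2-fold. Outside the leading genes, *Lmo2* (1.27, 0.76 to 1.75), *Fgf17* (1.24, 0.40 to 1.99) and *Hoxb4* (1.92, 1.01 to 2.74) were past 2-fold. *Rspo3* (0.94, 0.64 to 1.24) and *Fst* (0.64, 0.37 to 0.89) were higher by less, and *Hes7* (0.42, −0.20 to 0.98), *Dll1* (0.47, −0.22 to 1.10) and *Cdx2* (0.09, −0.28 to 0.44) were not distinguishable from the other *T* cells at this depth. *Spink1* (−3.55), *Id2* (−2.08), *Krt8* and *Krt18* (each −1.37) remained lower. The marker gates were not applied to these 619 cells, which included extraembryonic ectoderm cells with a *T* UMI. The part of those cells in the ratios of the lowest genes was not tested.

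The late streak cells were next set against the most similar cells of the library, which do not overlap with them. These were 226 cells with *T* and *Nkx1-2* UMIs and no *Mesp1*, 273 cells with *Mesp1*, and 55 cells with *Tbx6* and *Dll1* but none of *Mesp1*, *Nkx1-2*, *Mixl1* and *Evx1*. Their median depths were 6032, 5662 and 5743 UMIs. The genes of each gate are left out of the calls.

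Against the *T* and *Nkx1-2* cells, 6 of 8 presomitic genes were at least 2-fold higher and none lower, where 0.877% and 3.41% of 4221 genes were. *Pcdh19* (108 against 18.7 CPM, 2.53, 1.76 to 3.31), *Aldh1a2* (190 against 50.8, 1.90, 1.38 to 2.41), *Rspo3* (347 against 128, 1.44, 1.09 to 1.79) and *Tbx6* (154 against 63.5, 1.28, 0.74 to 1.79) made most of this, and *Hes7* did not differ beyond counting error (0.12, −0.52 to 0.72). The *Pcdh19* and *Aldh1a2* UMIs lay mostly in 12 late streak cells of 1 cluster given below, while those of *Tbx6* and *Rspo3* were spread wider. *Crabp1* (1.99, 1.44 to 2.54), *Lmo2* (1.68, 1.09 to 2.27), *Laptm4b*, *Car3* and *Csrp1* completed the leading genes. *Fabp7* (1.07, 0.46 to 1.65) and *Gal* (0.69, 0.22 to 1.14) were higher as well. On the epithelial side, *Cdh1* was at 42.5 against 110 CPM (−1.37, −2.31 to −0.56) and *Epcam* at 75.3 against 144 (−0.94, −1.63 to −0.32), while *Cdh2* (1.01, 0.24 to 1.73), the matrix gene *Fn1* (1.07, 0.66 to 1.46) and the mesodermal receptor *Pdgfra* (1.90, 0.86 to 2.91) were higher. *Pdgfa*, the ligand of that receptor, was lower (−2.28, −4.18 to −0.87), as were the transporters *Slc2a1* (−1.13), *Slc2a3* (−1.20) and *Slc16a1* (−1.80). *Cdx1* (−0.38, −0.62 to −0.15), *Cdx2* (−0.40, −0.78 to −0.04) and *Pou5f1* (−0.21, −0.44 to 0.01) were close to the caudal level or slightly below it.

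Against the *Mesp1* cells, 6 of 7 lateral plate and extraembryonic mesoderm genes and 4 of 8 BMP genes were at least 2-fold lower, where 4.43% of 4674 genes were lower and 1.07% higher. *Bmp4* stood at 16.4 against 92.7 CPM (−2.50, −4.14 to −1.25), *Hand1* at 75.3 against 229 (−1.60), and *Foxf1* at 26.2 against 79.5 (−1.60, −2.84 to −0.58). The growth-regulating genes *Cdkn1c* (−2.52), *Dlk1* (−2.21), *Mest* (−2.05) and *Peg10* (−1.93), all imprinted, were also lower. On the higher side were *Fabp7* (2.36, 1.67 to 3.05), *Gal* (2.34, 1.78 to 2.89), *Lmo2* (2.10, 1.49 to 2.70), *Tbx6* (1.68, 1.13 to 2.21), *Cdx1* (592 against 200 CPM, 1.56, 1.30 to 1.83), *Fst* (1.36, 1.06 to 1.65) and *Pou5f1* (1.20, 0.95 to 1.45). *Cdx2* (0.16, −0.22 to 0.53), *Cdh2* and *Pdgfra* did not differ beyond counting error.

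Against the *Tbx6* and *Dll1* cells few genes passed 2-fold, 0.436% of 1834 on the higher side and 0.927% on the lower, though fewer genes reached 50 UMIs than in the other comparisons. None of 6 presomitic genes was higher and 2 were lower. *Aldh1a2* was lower in the late streak cells (190 against 564 CPM, −1.57, −2.02 to −1.14), as were *Pcdh19* (−1.29, −1.91 to −0.69), *Crabp1* (−1.19, −1.68 to −0.71) and *Pdgfra* (−1.01, −1.97 to −0.11). *Cdx2* was higher (239 against 83.7 CPM, 1.51, 0.86 to 2.21), together with *Lmo2* (1.77, 0.85 to 2.79), *Psme2*, *Wfdc2*, *Tspan13*, *Tcf3*, *Yrdc* and *Hoxaas3* (1.60 to 1.08). *Cdx1* (−0.04, −0.34 to 0.26), *Fst* (0.08, −0.27 to 0.43), *Fabp7* (0.20, −0.52 to 0.93), *Gal*, *Hes7* and *Dll3* did not differ beyond counting error. *Aldh1a2* was at 50.8 CPM in the *T* and *Nkx1-2* cells, 190 in the late streak cells and 564 in the *Tbx6* and *Dll1* cells, and *Cdx2* was at 316, 239 and 83.7 in the same order. Other genes had another order, with *Lmo2* at 42.8, 137 and 40.3 CPM and *Cdx1* at 772, 592 and 607. The late streak levels pool unlike cells: *Aldh1a2* was at 524 CPM in 12 of them and 47.5 in 15 others, by the clusters given below.

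**Figure D2:**
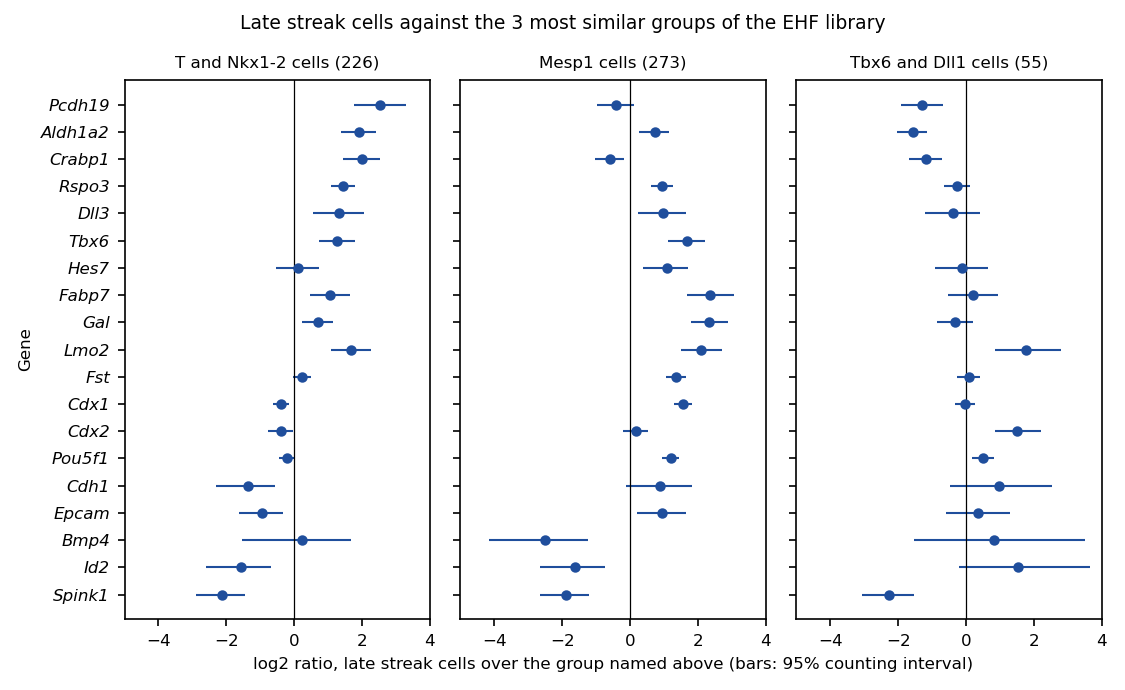
Log2 ratio of 19 genes in the 55 late streak cells over *T* and *Nkx1-2* cells (226), *Mesp1* cells (273) and *Tbx6* and *Dll1* cells (55), with bars for 95% counting intervals and a line at no difference. *Tbx6* has no point where it chose the cells. *Aldh1a2* lies at 1.90 in the first panel and −1.57 in the third, *Bmp4* lies at −2.50 in the second, and *Lmo2* lies right of 0 in all panels.

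Cells just outside the gate were also compared. The leading genes were higher than in the 275 cells with *T* and none of the other gate genes, apart from *Gal*, *Aldh1a2*, *Dll1* and *Foxb1*. Those did not differ beyond counting error: *Gal* 0.27 (−0.18 to 0.71), *Aldh1a2* 0.20 (−0.24 to 0.62), *Dll1* 0.34 (−0.39 to 1.01) and *Foxb1* 0.60 (−0.25 to 1.38). Against the 70 cells with *T*, *Mixl1* or *Evx1*, and *Nkx1-2*, the late streak cells had more *Aldh1a2* (1.13, 0.53 to 1.74), *Rspo3* (0.87, 0.45 to 1.29) and *Tbx6* (0.79, 0.16 to 1.43) and less *Epcam* (−1.09, −1.83 to −0.40), with *Fst* at the same level (−0.04, −0.35 to 0.27). Against the 28 such cells with *Mesp1*, they had more *Tbx6* (1.63, 0.59 to 2.85) and *Gal* (1.68, 0.69 to 2.82) and less *Hand1* (75.3 against 303 CPM, −2.01, −2.78 to −1.28). Since many of these cells were kept out by 1 UMI, the edges of the group rest on single molecules.

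The 55 cells were not 1 cluster. When all EHF cells were clustered with the gate genes held out of the variable genes, the late streak cells fell in 11 of 25 clusters, and 4 of these held 42 of them. Cluster 2, led by *Hoxaas3*, *Nefm*, *Nkx1-2* and *Cdx1*, held 15. Cluster 4, led by *Aldh1a2*, *Pcdh19*, *Meox1* and *Dll1*, held 12, cluster 18, led by *Fgf4*, *Gal* and *Dll1*, held 8, and cluster 22, led by *Evx1os*, *Hoxaas3* and *Sct*, held 7. The late streak cells were nowhere the majority: they made 5.91% of cluster 2, which also held 132 of the *T* and *Nkx1-2* cells, and 13.0% (5.37 to 24.9) of cluster 22. The remaining 13 cells lay in 7 clusters, 3 of them in cluster 21 with the node gene *Noto* among its leading genes. Among the other clusters, cluster 17, led by *Esam* and *Kdr*, held 2, and cluster 19, led by *Six3* and *Hesx1*, held 1. The gate therefore collects cells of several states that share these transcripts, and the label is used here for the gate alone.

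**Figure D3:**
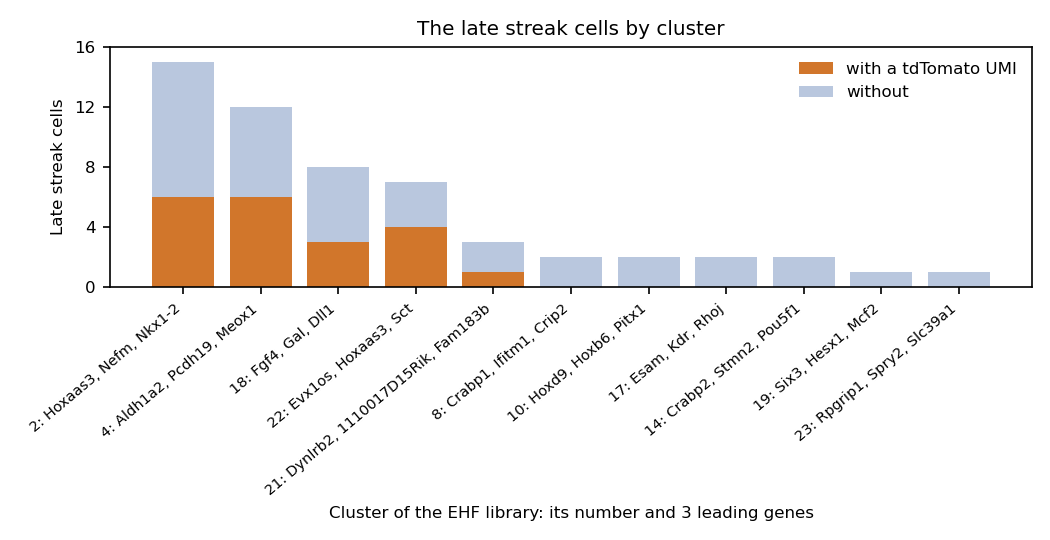
Number of late streak cells (vertical axis) in each of the 11 clusters that hold any, named by number and 3 leading genes, with cells that have a tdTomato UMI in orange and those without in light blue. Clusters 2, 4, 18 and 22 hold 15, 12, 8 and 7 cells, and the other 7 clusters hold 1 to 3 each.

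Between these clusters, the late streak cells differed in the genes that separate paraxial from posterior and caudal cells. The values are a description, since the clusters were made from the same counts. *Aldh1a2* was at 524 CPM in the 12 cells of cluster 4, 195 in cluster 18, 47.5 in cluster 2 and 23.0 in cluster 22. *Pcdh19* was at 341 CPM in cluster 4 and 11.9 to 68.9 in the other 3. *Sox2*, a factor of the neural and caudal progenitors, had 9 of its 13 UMIs in cluster 2 and none in clusters 4 and 18. *Msx1* and *Hand1*, genes of posterior and lateral mesoderm, each reached 184 CPM in cluster 22, where *Hoxaas3* was at 367. *Tbx6* was found in all 4, from 115 (cluster 22) to 236 CPM (cluster 4), as was *Fst* from 275 to 668 and *Pou5f1* from 526 to 998.

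Within the group, cells chosen by *Evx1* differed from those with *Mixl1* alone. The 11 cells with *Evx1* had 157 CPM of *Msx1* against 12.4 in the 44 others, so that the log2 ratio of *Mixl1*-only over *Evx1* cells was −3.67 (−6.17 to −1.71). *Hoxaas3* was at 315 against 57.8 CPM (−2.44, −3.54 to −1.39) and *Cdx2* at 393 against 198 (−0.99, −1.71 to −0.23). The *Mixl1*-only cells were higher in *Rspo3* (393 against 173 CPM, 1.18, 0.28 to 2.23), *Gal* (1.71, 0.27 to 3.65) and *Aldh1a2* (1.48, 0.16 to 3.16). *T* was at 550 and 551 CPM. Of the 11 *Evx1* cells, 4 were in cluster 22, 3 in cluster 2, 2 in cluster 8 and 1 each in clusters 4 and 10.

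*Tbx6*, present in 24 of the 55 cells, split the group after its values had been seen. Cells with *Tbx6* had 2 UMIs of *Hand1* and cells without it 21 (13.2 against 137 CPM, −3.37, −6.51 to −1.34). *Id1* was also lower with *Tbx6* (−1.33, −2.63 to −0.17), as was *Cdx2* (−0.83, −1.59 to −0.11), while *Aldh1a2* (1.17, 0.34 to 2.06), *Cdx1* (0.82, 0.37 to 1.28) and *Fst* (0.84, 0.33 to 1.36) were higher. The cells with *Tbx6* were deeper (median 5696.5 against 4727 UMIs), which favours finding a *Tbx6* UMI, and the part of depth in the split was not tested. *Tbx6* and *Sox2* were seen together in 4 cells, *Tbx6* and *Aldh1a2* in 11, and *Sox2* and *Aldh1a2* in 1. By *T*, the 16 cells with at least 4 UMIs had more *Fst* than the 17 with 1 UMI (465 against 164 CPM, 1.51, 0.58 to 2.55) and less *Id1* (−1.96, −3.61 to −0.51), a split also chosen after seeing the values.

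The reporter measured which cells had made active Cre from the *T* locus or descended from such cells. A tdTomato UMI was found in 20 of the 55 late streak cells, 36.4% (23.8 to 50.4), with 34 UMIs in all and up to 5 in a cell. In the tissues that should lack it, a UMI was found in 9 of 600 extraembryonic ectoderm cells (median 7441.5 UMIs) and in 0.526% of visceral endoderm cells (median 5236.5 UMIs). Against these, the other EHF cells had a share of 11.1%, *T* and *Nkx1-2* cells 29.6%, *Mesp1* cells 37.0%, and *Tbx6* and *Dll1* cells 52.7% (38.8 to 66.3). After thinning to 2000 UMIs, which left out 6 late streak cells, the share was 14.3% (5.94 to 27.2), with 16.7%, 18.4% and 24.1% in the same 3 groups. After thinning to 3500 UMIs it was 28.6% (15.7 to 44.6), with 19.8%, 29.7% and 42.0% in those groups. The differences between these shares were not tested.

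Reporter-positive late streak cells had more *Lef1* (283 against 146 CPM, 0.96, 0.19 to 1.74) and *Cdx1* (0.50, 0.07 to 0.94) and less *Id1* (−1.63, −3.20 to −0.32) than the 35 without a reporter UMI, with *T* at the same level (542 against 555 CPM, −0.04, −0.50 to 0.42). *Lef1*, *Cdx1* and *Id1* were picked after seeing the values, as the only genes of a longer set compared whose intervals left out 0. The reporter-positive cells had a median depth of 5496.5 against 4819 UMIs, and the part of depth in these differences was not tested. All 20 lay in clusters 2, 4, 18, 22 and 21. The same gate at the earlier stages held 1 cell with a tdTomato UMI each, 1.15% of the OB-EB and 1.47% of the MS-LS gated cells. Those embryos had also received tamoxifen. In the rest of those libraries the shares were 3.35% at OB-EB and 2.07% at MS-LS. The paper reports that reporter reads were too scarce at these stages to find positive cells.

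**Figure D4:**
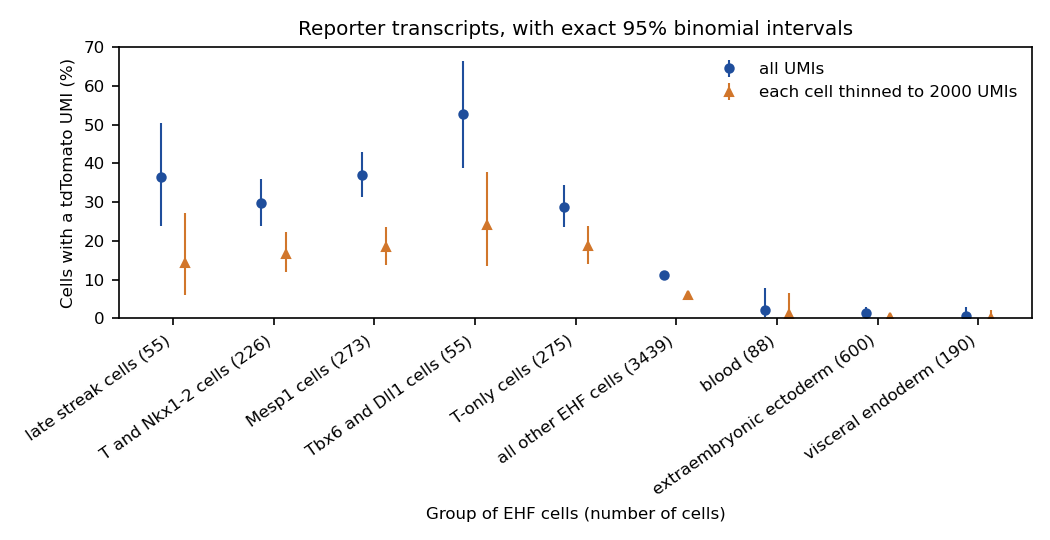
Share of cells with a tdTomato UMI (percent, vertical axis) in 9 groups of EHF cells, from all UMIs (circles) and after each cell was thinned to 2000 UMIs (triangles), with exact 95% binomial intervals. The late streak cells are at 36.4% and 14.3%, above the extraembryonic groups and within the intervals of the *Mesp1* cells.

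To see what is particular to the stage, the same gate was applied to the earlier libraries. It held 68 of 3635 MS-LS cells (1.87%, 1.46 to 2.37) and 87 of 3994 OB-EB cells (2.18%, 1.75 to 2.68). After thinning to 2000 UMIs before the gate, the shares were 0.793% at MS-LS, 1.57% at OB-EB and 1.29% at EHF (0.925 to 1.74), so the order of the stages depended on depth. Each stage is 1 library, and stage and library cannot be told apart.

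Posterior genes separated the EHF cells from the gated cells of the earlier stages. Summed Hox genes were at 799 CPM (701 to 905) in the EHF late streak cells, 50.9 (29.6 to 81.4) at OB-EB and 9.24 (2.52 to 23.7) at MS-LS, with 31, 18 and 13 Hox genes in the count tables. *Cdx1* was at 592, 5.98 and 4.62 CPM in the same order, *Cdx2* at 239, 47.9 and 13.9, *Tbx6* at 154, 8.98 and 0, and *Gal* at 177, 2.99 and 2.31. *Rspo3* was at 347 CPM at EHF and 47.9 at OB-EB. These genes also had higher CPM in the rest of the EHF library than in the rest of the earlier ones, as for *Cdx1* with 162, 2.19 and 0.913 CPM.

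Genes of the early streak and epiblast went the other way. *Eomes* was at 0, 138 and 284 CPM in the gated cells of EHF, OB-EB and MS-LS, *Fgf5* at 3.27, 117 and 150, and *Tdgf1*, the Nodal co-receptor, at 13.1, 177 and 293. *Foxa2*, a factor of the anterior streak, was at 9.82, 38.9 and 136 CPM and *Fgf8* at 68.7, 132 and 196. *Hes1* stood at 29.5, 248 and 1063 CPM. These genes were also lower in the rest of the EHF library than in the rest of the earlier ones. In the rest, *Eomes* was at 15.1, 55.3 and 129 CPM, *Fgf5* at 3.04, 76.7 and 81.0 and *Tdgf1* at 1.20, 80.9 and 143. *Foxa2* was at 8.37, 13.4 and 31.1 CPM there, *Fgf8* at 24.1, 62.7 and 89.3 and *Hes1* at 59.9, 165 and 543. *Tdgf1*, with 4 UMIs, was higher in the gated EHF cells than in the rest of that library (log2 ratio 3.45, 1.47 to 4.99). *Pou5f1* was at 622, 413 and 584 CPM in the gated cells.

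Across all genes tested, 10.5% of 1826 were at least 2-fold higher in the EHF than in the OB-EB gated cells and 9.36% lower, and 7.03% of 2021 higher and 8.07% lower against MS-LS. Many of the largest differences were also large outside the gate. *Rbm15* was at 9.82 CPM in the EHF and 512 in the OB-EB gated cells, and at 24.6 and 446 in the rest of those libraries. *Gm13075* stood at 26.2 and 835 CPM in the gated cells and at 22.0 and 797 in the rest, and *Loxl2* at 26.2 and 455 against 32.1 and 590. Each of these genes differed in the same direction outside the gate.

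Measured against the rest of its own library, the gate was higher at all 3 stages in *Fst*, *Sp5*, *Frzb* and *Fgf8*. The log2 ratio of gated cells over the rest was 1.94, 1.29 and 1.91 for *Fst* at EHF, OB-EB and MS-LS, 1.71, 1.48 and 1.85 for *Sp5*, 1.77, 1.15 and 1.28 for *Frzb*, and 1.51, 1.07 and 1.14 for *Fgf8*. *Rspo3* was 2.34 (2.04 to 2.62) at EHF against 0.51 (−0.31 to 1.23) and 0.65 (−0.27 to 1.45) at the earlier stages, and *Pou5f1* 1.41 (1.19 to 1.62) against 0.13 and 0.33. For *Pou5f1* the rest of the library was at 234, 377 and 465 CPM at EHF, OB-EB and MS-LS, and the gated cells at 622, 413 and 584. *Tbx6* was 2.91 (2.44 to 3.34) at EHF and 0.65 (−1.67 to 2.25) at OB-EB.

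**Figure D5:**
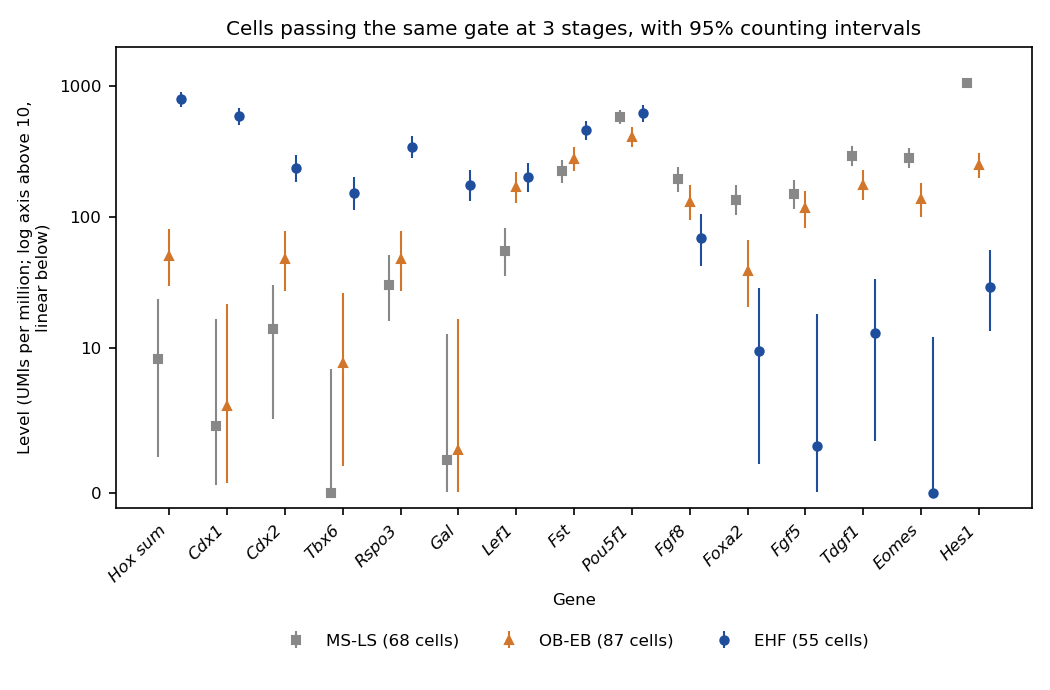
Level of the summed Hox genes and of 14 genes in the cells passing the same gate at MS-LS (squares, 68 cells), OB-EB (triangles, 87 cells) and EHF (circles, 55 cells), in CPM on an axis that is logarithmic above 10 and linear below, with 95% counting intervals. Hox genes, *Cdx1*, *Tbx6*, *Rspo3* and *Gal* are highest at EHF, *Eomes*, *Fgf5*, *Tdgf1* and *Hes1* are lowest there, and *Pou5f1* lies between 413 and 622 at all 3.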

How the data were processed

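Per the study's methods, single cells of each stage were run on the Chromium 3′ assay and read against a transcriptome with tdTomato added, and the submitters' processing notes name Cell Ranger 3.0.2, R 3.6.1, Seurat 3 and GRCm38. The authors deposited UMI counts per gene and cell without normalization. No EHF cell has fewer than 569 genes or 1004 UMIs, and the mitochondrial limit of the methods, applied again to the EHF table, would remove 45 cells. The EHF counts were deposited as a pair of tables that agree in all 65128160 values and differ in 21 gene names, and they were counted as 1 library. The EHF library holds 20376539 UMIs.

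Gates, sums and ratios were computed with Python 3.11.15, numpy 2.4.6, scipy 1.17.1 and pandas 2.3.3. Sums carry exact Poisson intervals, shares exact Clopper-Pearson intervals and ratios the exact conditional interval. Where a group had no UMI of a gene, 3 UMIs were taken as its upper limit, so its ratio is a bound. A list median with late streak genes at this bound is an upper limit. Called means past 2-fold among genes with at least 50 UMIs over both groups. Cells were clustered in scanpy 1.11.5 with leidenalg 0.10.2 (2000 variable genes, 50 components, 20 neighbours), and figures drawn in matplotlib 3.10.9. Doublets were kept, and the 5% of cells with the highest Scrublet scores were left out as an alternative. Positions were read from GENCODE (GRCm38) and promoters from RefSeq GRCm38.p6. The ratio step was tested on simulated data.

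Genes named are the gate genes, the 20 largest and 10 smallest ratios over all other EHF cells with a UMI in at least 25% of the cells of the higher group, the 8 of each for every other group, and list members. Mitochondrial, ribosomal protein, Xist and Y-linked genes were left out. The members, lists and tests were chosen with earlier results of these data known. Alternatives changed the gate, the cells, the scaling, the filter, the fold and the comparison group.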

Additional observations from a re-analysis of the deposited data

Results flagged for a closer look

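The direction of *Hes1* and *Eomes* in the gated cells differed between EHF and both earlier stages. For *Hes1* the log2 ratio of gated cells over the rest of the library was −1.03 (−2.16 to −0.10) at EHF, 0.59 (0.25 to 0.90) at OB-EB and 0.97 (0.83 to 1.10) at MS-LS. *Eomes* had no UMI in the gated EHF cells, which puts the ratio at −0.63 or below, against 1.32 (0.85 to 1.75) at OB-EB and 1.14 (0.87 to 1.40) at MS-LS. Of the 304 *Eomes* UMIs in the rest of the EHF library, 224 were in the extraembryonic ectoderm gate, and against the embryonic cells alone, at 5.29 CPM, the EHF direction is lost. With 1 library per stage the difference was not tested.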

How the results depend on the processing

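The number of late streak cells was 11 when *Evx1* was required, 125 without the *Nkx1-2* rule and 83 without the *Mesp1* rule, and 38 to 55 under the other 6 alternatives. The number of genes at least 2-fold higher than in all other EHF cells was 779, and it was 1358 with genes of at least 20 UMIs, 225 with at least 200, 28 with at least 1000, 69 against other *T* cells, 1453 with *Evx1* required, 1694 at 1.5-fold and 219 at 3-fold. The number of lower genes was 1128, and it was 561 against other *T* cells, 604 with *Evx1* required, 147 with at least 1000 UMIs, 2138 at 1.5-fold and 427 at 3-fold. Scaling by the median ratio of −0.11 gave 959 higher and 949 lower genes. The limit of 1000 UMIs, the 4 largest clusters and the cell left out were chosen after seeing the data. Against other *T* cells, 15 of the 30 named genes stayed past 2-fold, against 28 to 30 elsewhere, and without the extraembryonic and blood gates *Ttr* was 0.065 and *Apoa1* 0.21. The tdTomato share was 14.3% after thinning to 2000 UMIs and 16.4% with at least 2 UMIs required, and the gated shares of OB-EB and MS-LS were 1.57% and 0.793% after thinning. Of 600 gene ratios under alternatives, 534 moved by less than their counting interval, 64 moved by more and 2 reversed. Depth limits the group: the median gene tested had 5 UMIs in it. No paired analysis was possible because each stage is 1 library.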
